A study of Mus musculus with 219 samples.

Results

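The genes described here are the 6 genes for AMPK subunits expressed in brain (Prkaa1, Prkaa2, Prkab1, Prkab2, Prkag1 and Prkag2), 3 genes for stress-induced inhibitors of mTOR (Ddit4, Sesn1 and Sesn3), and Mtor itself, measured by RNA sequencing in the left prefrontal cortex of mice. The 10 were taken by name through the GENCODE annotation from 55487 gene identifiers, and all 10 passed the filter on low counts in both count tables. AMPK is an energy sensor built from a catalytic alpha, a scaffolding beta and a nucleotide-binding gamma subunit, and it is switched on when AMP and ADP rise against ATP. mTOR is a kinase that drives protein synthesis and growth when nutrients are plentiful. AMPK holds mTOR complex 1 back, Ddit4 (REDD1) does so through the TSC proteins, and the sestrins do so by binding GATOR2, which for Sesn1 depends on leucine being scarce.

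A circadian atlas held 92 libraries from WT/WT mice (Snord116+/+Ctg-/-) of about 12 weeks, kept in home cages with 12 h of light in each 24 h (12:12) and sampled at 8 zeitgeber times (ZT, hours after lights on). It had 6 libraries per sex and time, and 5 per sex at ZT18 and at ZT21. A further 126 libraries came from mice moved at about 8 weeks to light-controlled incubators, entrained for 22 days to 12:12 or to alternating 11 h spans of light and dark (11:11), and sampled at ZT6. Of the 2 sets, one was housed for indirect calorimetry and sampled in constant darkness, and the other was housed with running wheels and sampled under a light-dark cycle, so cage type and light at collection cannot be told apart. The genotypes were WT/WT, HET/WT (Snord116+/-Ctg-/-, lacking 1 copy of an imprinted snoRNA cluster), WT/TG (Snord116+/+Ctg+/-, with the transgene Ctg) and HET/TG (Snord116+/-Ctg+/-). Each set, sex, light cycle and genotype had 4 libraries, except 3 in the WT/TG males of the 11:11 calorimetry group and of the 12:12 running wheel group. Replicates were labelled as biological.

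Libraries held 12995490 to 18420260 counts in the atlas and 12737700 to 29856540 at ZT6. At ZT6, 3 libraries stood apart. Among running wheel females on 11:11, replicate 3 of the libraries labelled HET/WT had 167 CPM (counts scaled by library size) of Snhg14, the host transcript of Snord116, against 26.4 to 35 CPM in the other 3 of its group. The library of WT/TG replicate 1 in the same set, sex and cycle had 40.3% of its counts in ribosomal RNA genes (median of the ZT6 libraries 0.491%), and that of HET/TG replicate 4 of the calorimetry males on 11:11 had 34.1% in mitochondrially encoded genes. ZT6 libraries also differed in how level followed gene length. The slope of each library's log2 CPM deviation on log2 exon length had a median of -0.14 in calorimetry males, 0.01 in calorimetry females, 0.03 in running wheel males and 0.10 in running wheel females. Summed markers of excitatory neurons (3206 to 4449 CPM in the atlas) far exceeded those of striatal neurons (61.8 to 799 CPM), but the striatal sum varied widely between libraries. In bulk tissue, fewer cells of a type and less RNA per cell cannot be told apart.

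Promoter sequence is shown for Prkab1 and Prkaa2, the AMPK subunits with the widest fitted daily range, which peaked at different times. In the main fit over all ZT6 mice they differed between light cycles in opposite directions. Neither was called with the slope on gene length as a term, where the log2 difference of Prkaa2 was 0.0080. The stretches are from RefSeq (GRCm38.p6, mm10 coordinates), lie upstream of the annotated start, and are written 5′ to 3′ on the minus strand. That of Prkab1 is chr5:116024509-116024678 and that of Prkaa2 is chr4:105109899-105110148.
Prkab1: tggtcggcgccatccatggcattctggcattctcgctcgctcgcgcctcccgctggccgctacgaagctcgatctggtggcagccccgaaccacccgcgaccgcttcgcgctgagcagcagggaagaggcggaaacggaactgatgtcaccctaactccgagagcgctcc
Prkaa2: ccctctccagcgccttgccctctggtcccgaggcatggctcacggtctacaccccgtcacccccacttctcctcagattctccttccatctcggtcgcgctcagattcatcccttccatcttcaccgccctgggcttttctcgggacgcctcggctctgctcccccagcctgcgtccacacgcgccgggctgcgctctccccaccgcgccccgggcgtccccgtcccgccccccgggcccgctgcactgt
No letters are in capitals because none of the 6 motifs searched on both strands occurred in either. RefSeq windows of 250 bases before to 50 bases after a start were searched, 13 for the 10 genes and 32851 in all. The E-box CACGTG (7.15% of all windows), the D-box TTATGTAA (0.938%), the ROR element TAGGTCA (2.61%) and the CRE TGACGTCA (1.79%) matched none of the 13. The glucocorticoid receptor motif AGAACA (18.97%) matched the Prkag1 window, and the forkhead motif GTAAACA (3.65%) matched a Sesn1 window, after the start. These are matches of letters and not sites.

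Per kilobase of exon, Sesn3 had the highest level in the atlas, 13.8 ± 1.32 CPM per kb (SD, n = 92), followed by Mtor (12.4 ± 1.01) and Prkag1 (12.3 ± 0.887). Sesn1 had 10.8 ± 0.920, Ddit4 10.5 ± 1.49, Prkaa2 9.65 ± 0.932 and Prkag2 8.98 ± 0.932 CPM per kb, and each of these neighbours lay within the spread of the next. Prkab2 (6.84 ± 0.604) and Prkaa1 (6.22 ± 0.437) came lower, and Prkab1 lowest with 3.15 ± 0.560 CPM per kb. Within each pair of subunit genes, Prkaa2 was thus above Prkaa1, Prkab2 above Prkab1 and Prkag1 above Prkag2. At ZT6 the same 3 orders held, with 11.1 ± 1.3 against 6.92 ± 0.658, 6.39 ± 0.685 against 2.84 ± 0.526, and 13.2 ± 1.67 against 9.61 ± 0.961 CPM per kb (n = 126). Without division by length, Prkag2 was above Prkag1 in the atlas, with 58.2 ± 6.04 against 26.8 ± 1.93 CPM. The order of the gamma pair thus rests on the exon lengths used, 6480 and 2175 bases. Exons of Prkag1 overlap 950 bases of B130046B21Rik on the opposite strand, and those of Prkag2 overlap 937 bases of Prkag2os1 and Prkag2os2. The strand setting of the counting is not given in the sources used here, so reads of these partners cannot be told apart from those of the 2 gamma subunits.

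**Figure D1:**
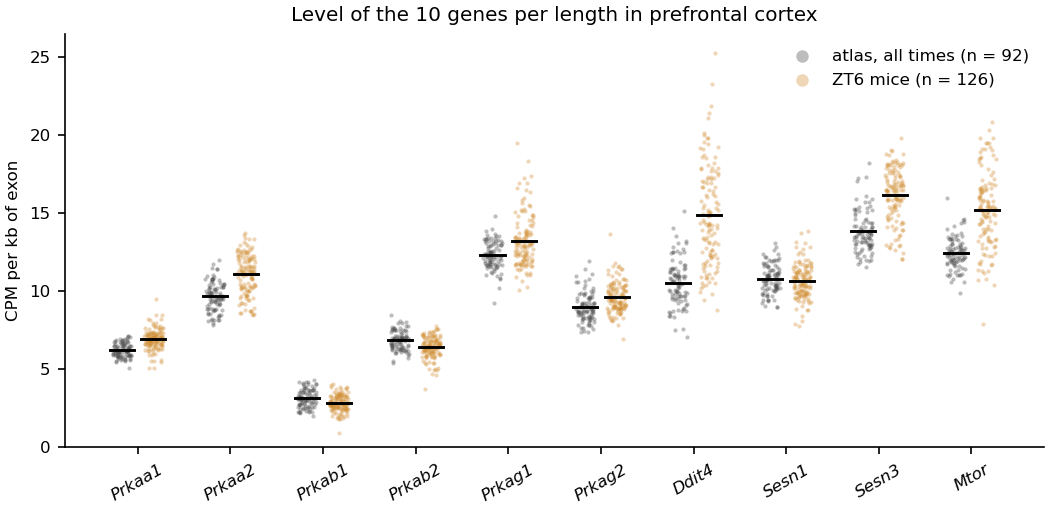
Level of the 10 genes (vertical axis, CPM per kb of exon). Each point is 1 library, grey for the 92 atlas libraries and orange for the 126 ZT6 libraries, with black bars for means. Prkab1 is lowest in both, with means of 3.15 and 2.84 CPM per kb.

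The atlas asked which genes followed the time of day in wild-type cortex. A rhythm was called for 6 of the 10 genes (edgeR quasi-likelihood test of a 24 h cosine and sine, Benjamini-Hochberg adjusted p under 0.05), where 41.4% of the 17193 genes tested were called. The 6 were the catalytic subunits Prkaa1 and Prkaa2, the scaffold Prkab1, the gamma subunit Prkag2, Sesn1 and Mtor. In the fit of both sexes together, Prkaa1 and Prkab1 peaked in the light, and Prkaa2, Sesn1 and Mtor peaked early in the dark.

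Prkab1, the less abundant scaffold, had the widest fitted range of the 10. Its lowest, median and highest libraries had 6.19, 8.95 and 10.6 CPM at ZT0 (n = 12). They had 9.81, 11.4 and 12.8 CPM at ZT6, and 9.66, 11.1 and 13.1 CPM at ZT12. At ZT15 they had 6.88, 8.39 and 9.65 CPM, so that all 12 libraries of ZT15 lay below all 12 of ZT12. Levels stayed low at ZT18 (6.81, 8.13 and 10.2 CPM) and ZT21 (6.75, 8.16 and 10.8 CPM, n = 10 each). The fitted peak-to-trough fold was 1.42 (95% interval 1.31 to 1.53), with the peak at ZT 8.11 (7.28 to 8.94) and an edgeR adjusted p of 1.97e-11. It was 1.36 in females alone and 1.5 in males alone. The scaffold Prkab2 had a fold of 1.06 and was not called (adjusted p = 0.0793), but was called with the 8 times as separate levels (adjusted p = 0.0272).

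Prkaa2, the catalytic subunit with the higher level here, ran later. Its lowest, median and highest libraries had 64.3, 67.8 and 85.7 CPM at ZT3 and 70.7, 78.9 and 95.5 CPM at ZT15 (n = 12 each), which overlapped. Its fitted fold was 1.17 (1.11 to 1.22), with the peak at ZT 14.2 (13 to 15.4) and adjusted p = 1.4e-07 by edgeR. Prkaa1, the other catalytic subunit, had 27.4, 30.8 and 33 CPM at ZT6 and 23.6, 27.3 and 28.8 CPM at ZT18 (n = 12 and 10), also overlapping. Its fold was 1.09 (1.05 to 1.13), with the peak at ZT 4.92 (3.16 to 6.67) and adjusted p = 0.0012 by edgeR. The intervals of the peak times of Prkaa1 and Prkaa2 did not overlap. Of the gamma subunits, Prkag2 had means of 65.2 ± 5.83 CPM at ZT3 and 55.3 ± 3.90 CPM at ZT12 and a fold of 1.09 (1.03 to 1.14; adjusted p = 0.015 by edgeR). Its fitted peak was at ZT 1.14 (-1.42 to 3.70). The Prkag2 call was lost without replicates 1, 2 or 3 (adjusted p up to 0.0631). Prkag1 had a fold of 1.03 and was not called (adjusted p = 0.584).

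Among the mTOR brakes, the leucine-sensing sestrin Sesn1 had a lowest, median and highest library of 37.4, 40.5 and 45 CPM at ZT3 and of 40.6, 45.6 and 51.0 CPM at ZT12 (n = 12 each), overlapping. Its fold was 1.10 (1.06 to 1.14), with the peak at ZT 14.6 (13.2 to 16.1) and adjusted p = 3.1e-05 by edgeR. Fitted by sex, Sesn1 peaked at ZT 13.1 (11.2 to 15.0) in females and at ZT 16.3 (14.5 to 18.1) in males. At ZT21 (n = 5 per sex) the male mean was the highest of the day, 48.4 ± 3.08 CPM. The female mean was then the lowest of the day, 37.9 ± 1.93 CPM. For Sesn1 the edgeR test of a sex difference in the rhythm had an unadjusted p above 0.05, and ZT21 was not tested by itself. Sesn3 had a fold of 1.06 and was not called (adjusted p = 0.074). Ddit4, which glucocorticoids and low oxygen induce, had its highest means of both sexes pooled at ZT12 and ZT0. Its means were 20.5 ± 2.61 CPM at ZT0, 16 ± 2.29 CPM at ZT6, 21.0 ± 2.12 CPM at ZT12 and 18.4 ± 1.20 CPM at ZT18. In females the ZT0 median was 18.3 CPM, with 1 library at 26.5 CPM, and the ZT3 median was 19.3 CPM. In males the means were 20.1 CPM at both ZT12 and ZT21 and 21.2 CPM at ZT0. A cosine of 24 h did not call Ddit4 (adjusted p = 0.267), whereas the test of the 8 times as levels did, with a range of 0.39 on the log2 scale (adjusted p = 4.46e-05 by edgeR). That test called 33.9% of all genes and 7 of the 10. Mtor had means of 119 ± 8.69 CPM at ZT3 and 130 ± 14.4 CPM at ZT15 and a fold of 1.08 (1.03 to 1.13), with the peak at ZT 15.6 (13.2 to 17.9; adjusted p = 0.0129 by edgeR). The Mtor call was lost with the times as levels (adjusted p = 0.151) and without replicates 1, 2 or 3 (adjusted p up to 0.219). Its mean was highest at ZT15 in males (135 ± 18.8 CPM, n = 6) and at ZT21 in females (132 ± 10.5 CPM, n = 5). The fitted Mtor fold in females alone was 1.04 (1 to 1.09).

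**Figure D2:**
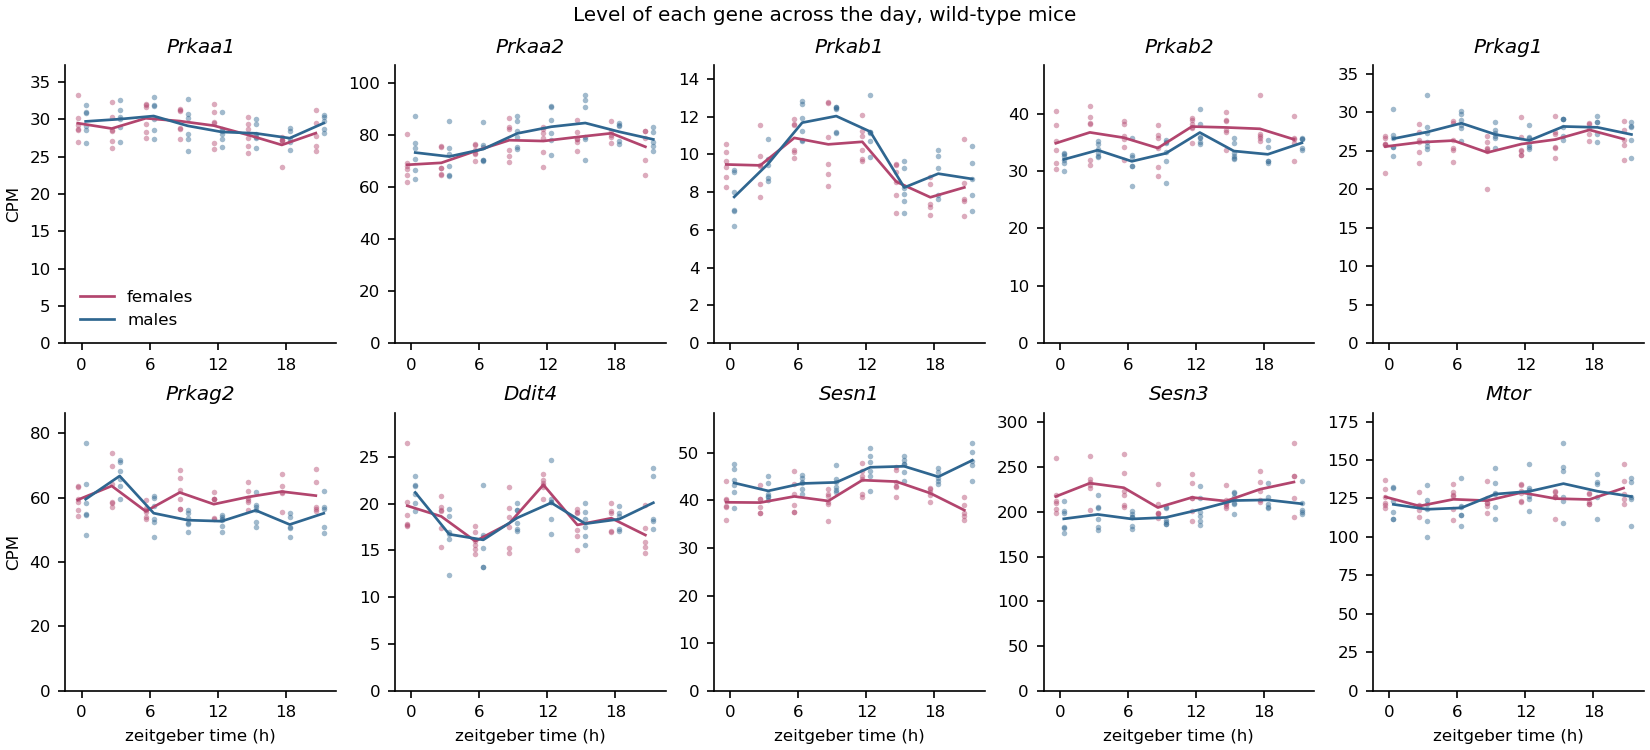
Level of each gene (vertical axes, CPM, from 0) against zeitgeber time (horizontal axes, h). Each point is 1 wild-type library, and lines join the means of females (pink) and males (blue). Prkab1 runs highest from ZT6 to ZT12, and the means of Ddit4 over both sexes are highest at ZT12 and ZT0.

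For a sex difference in the rhythm, edgeR called 0 of the 10 genes (0.0756% of all genes) and so did DESeq2. Under an unadjusted p of 0.05 by edgeR were 1334 of all 17193 genes and 2 of the 10. The 2 were Sesn3, with a fold of 1.08 in females and 1.11 in males (adjusted p = 0.416 by edgeR), and Prkag2, with 1.04 and 1.16 (adjusted p = 0.5 by edgeR). Females alone gave 3 rhythmic genes (Prkaa2, Prkab1 and Sesn1), where 19.2% of all genes were called. Males alone gave 7, with Sesn3 beside the 6 above (adjusted p = 0.00347 by edgeR), where 25.9% were called.

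For each rhythmic gene, the genes with the most similar course were taken by Pearson's r over the 16 means of sex and time, as a description of means that share libraries. Prkaa2 ran most like Nr1d2, a nuclear receptor of the clock (r = 0.949), Mapk6 (0.940) and Osbpl1a (0.938). Prkab1 ran most like Lrrcc1 (0.916), Gpr21 (0.914) and Tmem74b (0.913). Prkaa1 was nearest to Gpr12 (0.950), Prkag2 to Lrp8 (0.921), Sesn1 to Npnt (0.888) and Mtor to Dmxl2 (0.932).

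Males and females of the atlas differed in 6 of the 10 genes, where 41.1% of all genes were called. Sesn1 had a lowest, median and highest library of 38.4, 44.6 and 52.1 CPM in males and of 35.6, 40.7 and 47.8 CPM in females (n = 46 each), a log2 difference of 0.13 ± 0.02 (SE; adjusted p = 4.59e-09 by edgeR). Sesn3 had 176, 200.6 and 235 CPM in males and 190, 215 and 277 CPM in females, a difference of -0.13 ± 0.02 (adjusted p = 1.74e-06 by edgeR). The 2 sestrins thus differed by sex in opposite directions, with overlapping values. Prkag1 (0.07) and Prkaa2 (0.06) were also higher in males, and Prkab2 (-0.11) and Prkag2 (-0.09) lower. The Prkaa2 call was lost without replicates 1, 2, 3 or 5 (adjusted p up to 0.134), and the Prkag1 call without replicate 4 (adjusted p = 0.154). All 5 striatal neuron markers were lower in males (median log2 difference -1.88) and all 4 blood markers higher (0.34), and their part in the result was not tested.

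At ZT6 the light cycle comparison asked how 11:11 differed from 12:12. Over all mice 3 of the 10 genes were called, where 12.6% of the 18841 genes tested were called. Prkab1 was lower on 11:11 (log2 difference -0.15 ± 0.05, adjusted p = 0.0173 by edgeR), and Prkaa2 (0.06 ± 0.02, adjusted p = 0.0381) and Sesn1 (0.07 ± 0.02, adjusted p = 0.0435) were higher. The Prkaa2 and Sesn1 calls were lost without the library rich in ribosomal RNA (adjusted p = 0.0595 and 0.0720) and by DESeq2 (0.0610 and 0.0594). With a replicate number left out, Prkab1 was called in 2 of 4 cases (adjusted p up to 0.272), and Prkaa2 and Sesn1 in 1 of 4 each (up to 0.221 and 0.253), with none of the 3 called without replicate 1. With the length slope as a term, where edgeR called 4.88% of all genes, none was called, and the differences were -0.11 for Prkab1 (adjusted p = 0.193), 0.0080 for Prkaa2 (0.878) and 0.08 for Sesn1 (0.0510).

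In calorimetry mice, Prkab1 had a lowest, median and highest library of 7.60, 9.79 and 12.4 CPM on 12:12 (n = 32) and of 2.87, 7.69 and 11.9 CPM on 11:11 (n = 31). The groups overlapped, and the lowest value was that of the library rich in mitochondrial RNA. Prkab1 fell by 0.27 on the log2 scale (95% interval -0.40 to -0.14; adjusted p = 0.00106 by edgeR). Sesn1 had 31.3, 43.4 and 47.3 CPM on 12:12 and 35.9, 45.8 and 55.2 CPM on 11:11, overlapping, and rose by 0.10 (0.04 to 0.17; adjusted p = 0.0154 by edgeR). Prkaa2 had 67.4, 84.7 and 106 CPM on 12:12 and 68.3, 89.6 and 109 CPM on 11:11, overlapping, and rose by 0.09 (adjusted p = 0.0363 by edgeR). These were 3 of the 10 genes, where 19.6% of all genes were called. The calls of Prkab1 held without each replicate number in turn, those of Prkaa2 in 0 of 4 cases (adjusted p up to 0.197) and those of Sesn1 in 1 of 4 (adjusted p up to 0.0759). Prkaa1 had a difference of -0.08 (adjusted p = 0.0551 by edgeR), and was called by DESeq2 (adjusted p = 0.0279) and without the library rich in mitochondrial RNA (-0.10, adjusted p = 0.00731), where Prkaa2 was not (0.0605).

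The slope on gene length moved with the light cycle in calorimetry mice, with medians of 0.03 on 11:11 and -0.01 on 12:12 in females, and -0.11 and -0.14 in males. With the slope as a term, Sesn1 (0.12, adjusted p = 0.0204) and Prkaa1 (-0.12, adjusted p = 0.0334) were called, and Prkab1 (-0.20, adjusted p = 0.0771) and Prkaa2 (-0.02, adjusted p = 0.808) were not, where edgeR called 9.27% of all genes. Of the 4 blood markers 3 were lower on 11:11 (median log2 difference -0.47), with summed levels of 43 to 90.3 CPM in females and 106 to 276 CPM in males, against 66.2 to 163 and 165 to 372 CPM on 12:12. Of the 5 striatal markers 1 was lower, and the part of blood or striatal tissue was not tested. The summed level of 4 clock genes, taken as markers of collection time, had higher medians on 11:11, with overlapping ranges. For females the medians were 246 against 210 CPM (calorimetry) and 225 against 185 CPM (wheels). For males they were 225 against 206 CPM (calorimetry) and 206 against 197 CPM (wheels). Prkab1, Prkaa2 and Sesn1 followed the time of day in the atlas. Whether internal time at ZT6 differed between the light cycles was not tested.

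In running wheel mice edgeR called 0 of the 10 genes (0.069% of all genes) and DESeq2 called 0. An unadjusted p under 0.05 by edgeR was reached by 1 of the 10 (Prkag1, -0.07) and by 1405 of all 18841 genes. Prkab1 had a lowest, median and highest library of 5.89, 8.72 and 11.6 CPM on 12:12 (n = 31) and of 5.56, 8.34 and 11.8 CPM on 11:11 (n = 32), a log2 difference of -0.03 (-0.16 to 0.10). The difference between the sets in the light cycle effect was called for 0 of the 10 by edgeR (5.32% of all genes) and by DESeq2. At an unadjusted p under 0.05 by edgeR were 3553 of all 18841 genes and 2 of the 10. These 2 were Prkab1 (-0.24, interval -0.42 to -0.06, adjusted p = 0.115 by edgeR) and Prkaa1 (-0.11, interval -0.20 to -0.02, adjusted p = 0.167 by edgeR).

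By sex and set, Prkab1 had log2 differences of -0.21 in calorimetry females (adjusted p = 0.12), -0.34 in calorimetry males (adjusted p = 0.00967), -0.17 in running wheel females and 0.10 in running wheel males by edgeR. Running wheel females and males each had 0 of the 10 called (0.276% and 0% of all genes), with 0 and 1 (Prkag1) at an unadjusted p under 0.05. Of all 18841 genes, 1886 and 749 were under that level. Calorimetry males called Prkab1 and Sesn1 (13.5% of all genes called), and calorimetry females called Mtor (12.3%). In calorimetry females Mtor had a lowest, median and highest library of 126, 145 and 160 CPM on 12:12 and of 149, 162 and 174 CPM on 11:11 (n = 16 each), with some overlap, and rose by 0.13 ± 0.04 (adjusted p = 0.018 by edgeR). In calorimetry males the medians were 129 and 119 CPM and the log2 difference -0.04 (adjusted p = 0.621 by edgeR). In calorimetry females Mtor had a difference of 0.06 with the length slope as a term and was not called (adjusted p = 0.54 by edgeR, which called 3.41% of all genes). In calorimetry males the Prkab1 (-0.28, adjusted p = 0.0414 by edgeR) and Sesn1 (0.16, adjusted p = 0.0197) calls were kept with it (10.8% of all genes). The test of the light cycle effect in males minus that in females called 0 of the 10 by edgeR (5.54% of all genes). At an unadjusted p under 0.05 by edgeR were 3574 of all 18841 genes and 1 of the 10. That 1 was Mtor (-0.11, interval -0.19 to -0.02), with an adjusted p of 0.121 by edgeR and 0.0416 by DESeq2, which called it alone.

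**Figure D3:**
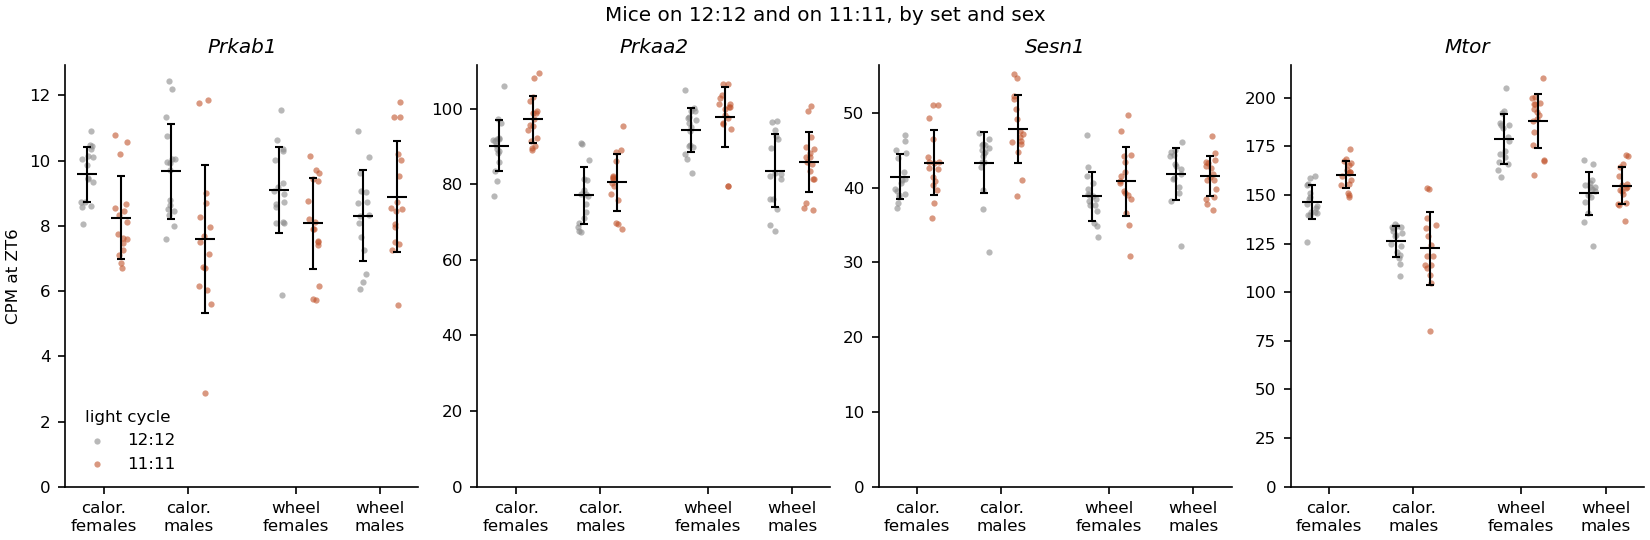
Level at ZT6 (vertical axes, CPM, from 0) of Prkab1, Prkaa2, Sesn1 and Mtor by set and sex (horizontal axes; calor., calorimetry; wheel, running wheel). Each point is 1 library, grey on 12:12 and orange on 11:11, with mean and SD in black. Prkab1 medians in calorimetry mice were 9.79 CPM on 12:12 and 7.69 CPM on 11:11, with overlapping points.

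Calorimetry and running wheel mice differed in 7 of the 10 genes, where 62.2% of all genes were called. Mtor had a lowest, median and highest library of 80.0, 139 and 174 CPM in calorimetry mice and of 124, 166 and 210.1 CPM in running wheel mice (n = 63 each), overlapping, a log2 difference of -0.28 ± 0.02 (adjusted p = 9.12e-24 by edgeR). Sesn3 (-0.13), Prkag2 (-0.11), Prkaa2 (-0.07) and Prkab2 (-0.06) were also lower in calorimetry mice, and Prkag1 (0.14) and Sesn1 (0.11) higher. Prkab2 was called in 0 of 4 cases with a replicate number left out (adjusted p up to 0.131), and its direction differed by sex, with means of 34.7 CPM in calorimetry and 32.4 CPM in running wheel females, against 29.3 and 33.7 CPM in males. With the length slope as a term, 24.2% of all genes were called, and of the 10 only Prkaa2 (0.29, adjusted p = 4.58e-05 by edgeR) and Prkab2 (0.18, adjusted p = 0.0422), both in the other direction. The slope largely followed set and sex, from -0.18 to -0.05 in calorimetry males and from 0.05 to 0.15 in running wheel females. Set, sex and slope thus cannot be fully told apart in this fit. The SE for Mtor was 0.06 with the term, against 0.02 without it. All 4 blood markers were higher in calorimetry mice and all 5 striatal markers lower, and their part was not tested.

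Males and females at ZT6 differed in 8 of the 10 genes, where 58.1% of all genes were called. Mtor had a lowest, median and highest library of 80.0, 137 and 170.3 CPM in 62 males and of 126, 166 and 210.1 CPM in 64 females, overlapping, a log2 difference of -0.28 ± 0.02 (adjusted p = 9.05e-24 by edgeR). Prkaa2 (-0.21), Sesn3 (-0.17), Prkaa1 (-0.10) and Prkab2 (-0.10) were lower in males as well. Ddit4 had 18.5, 28.8 and 44.3 CPM in males and 15.4, 23 and 35.3 CPM in females, overlapping, and was higher in males by 0.27 ± 0.05 (adjusted p = 7.6e-07 by edgeR). Prkag1 (0.18) and Sesn1 (0.09) were higher too. Sesn1, Prkag1, Sesn3 and Prkab2 had the same direction by sex as in the atlas, while Prkaa2 was higher in atlas males. For Prkab2 this held in calorimetry mice alone, since running wheel males (33.7 CPM) were above running wheel females (32.4 CPM). Mtor, Ddit4 and Prkaa1 were not called by sex in the atlas. Their atlas means in males and females were 125.7 and 125.4 CPM (Mtor), 18.6 and 18.4 CPM (Ddit4), and 29.1 and 28.8 CPM (Prkaa1). With the length slope as a term, edgeR called 11.1% of all genes and 0 of the 10. Mtor then had a difference of -0.08 ± 0.06 and Ddit4 of 0.05 ± 0.14 (SE), with wider errors than without the term. Sex and slope cannot be fully told apart in this fit either. Prkaa2 (0.12), Prkab2 (0.13) and Sesn3 (0.0056) then had the other sign. All 4 blood markers were higher in males and 4 of 5 striatal markers lower. Oligodendrocyte and excitatory neuron sums were highest in calorimetry males, as given above, and the part of these cell types was not tested.

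**Figure D4:**
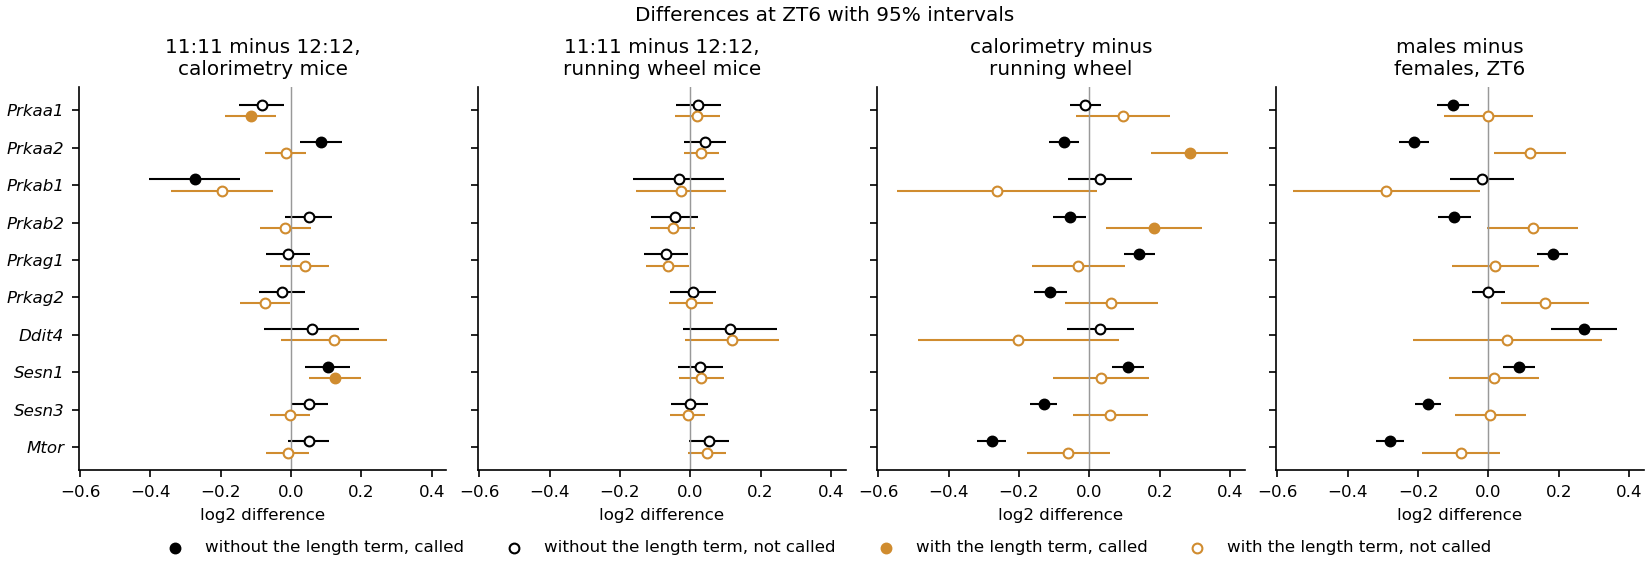
Log2 differences at ZT6 (horizontal axes) of the 10 genes with 95% intervals, for light cycle in each set, for set and for sex. Black is the fit without and orange the fit with the length slope, and filled points were called at adjusted p under 0.05. The Mtor difference of -0.28 by set and by sex is -0.06 and -0.08 with the slope, each with an SE of 0.06. The slope cannot be fully told apart from set and sex.

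The mice were bred to compare genotypes, and none of the 10 genes was called for genotype. For HET/WT against WT/WT edgeR called 0 (0.0425% of all genes), DESeq2 called 0, and log2 differences ran from -0.09 to 0.08. At an unadjusted p under 0.05 by edgeR were 1206 of all 18841 genes and 1 of the 10. The 1 was Prkaa2, with a lowest, median and highest library of 67.7, 87.5 and 99.4 CPM in HET/WT and of 72.7, 90.8 and 109 CPM in WT/WT (n = 32 each), overlapping (difference -0.09, interval -0.15 to -0.03, adjusted p = 0.58 by edgeR). For WT/TG edgeR called 0 (0.0159%), 0 had an unadjusted p under 0.05 (beside 803 of all genes), DESeq2 called 0, and differences ran from -0.08 to 0.05. For HET/TG edgeR called 0 (0.0478%), 0 had an unadjusted p under 0.05 (beside 1144 of all genes), DESeq2 called 0, and differences ran from -0.06 to 0.03. Across the 3 comparisons the intervals reached at most -0.21 (Prkab1, WT/TG) and 0.22 (Ddit4, HET/WT).

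The HET/WT difference was also compared between light cycles, sexes and sets. edgeR called 0 of the 10 and 0% of all genes in each, and DESeq2 called 0 of the 10 in each. At an unadjusted p under 0.05 there was 1 gene between light cycles (Sesn3, 0.11), 0 between sexes and 1 between sets (Mtor, 0.13). Of all 18841 genes, 1331, 1051 and 812 were under that level in turn.

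**Figure D5:**
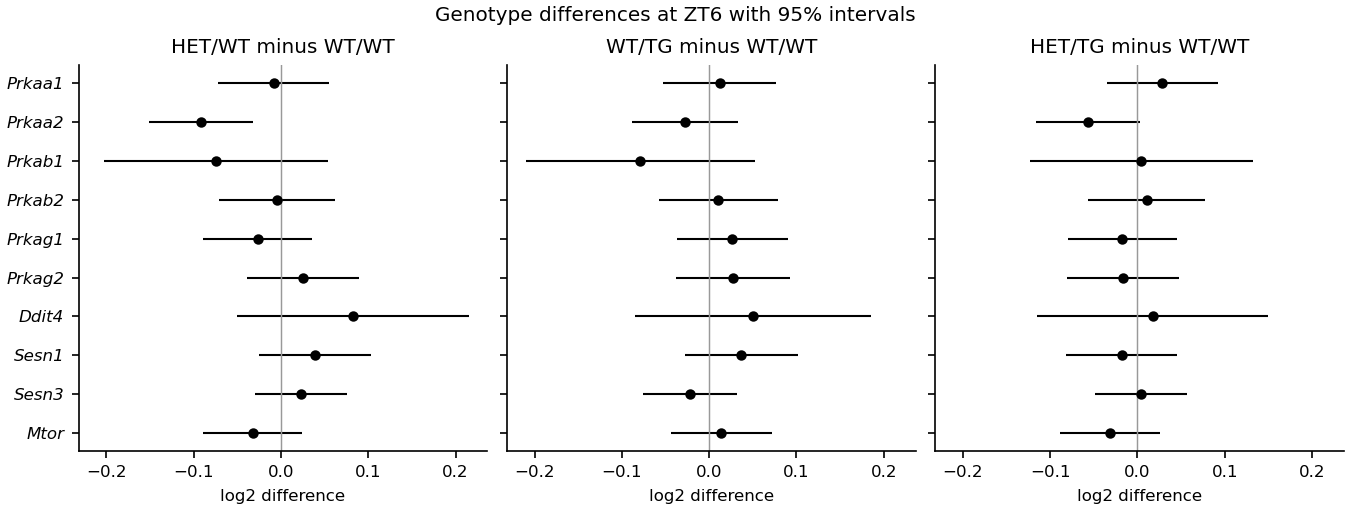
Log2 differences from WT/WT at ZT6 (horizontal axes) of the 10 genes for each of HET/WT, WT/TG and HET/TG, bars being 95% intervals. Points lie between -0.09 and 0.08 and none was called.

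Of 63 other genes of the AMPK and mTOR pathway, 62 were tested (Prkag3, the muscle gamma subunit, was not). A rhythm was called for 31 of the 62 (50%, beside 41.4% of all genes), with 8 of 14 genes of the GATOR complexes and amino acid sensors, 7 of 11 targets and outputs, 6 of 13 genes of the Rag proteins and lysosome and 3 of 10 of the mTOR complexes. The smallest p-values were those of Bmt2 (Samtor), a sensor of S-adenosylmethionine (fold 1.19), Castor2 (1.26), the translation repressor Eif4ebp2 (1.17) and the lysosomal amino acid transporter Slc38a9 (1.19). Next came Tsc1 (1.13), Atf4 (1.16), Ulk1, which starts autophagy (1.10), and Camkk1, a kinase upstream of AMPK (1.14). These 8, picked by p, peaked in the dark, from ZT 15.8 to ZT 20.4. Of all 31, 21 peaked in the dark and 10 in the light. The same split was not counted over all rhythmic genes, so it cannot be read as particular to the pathway.

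On 11:11 in calorimetry mice 17 of the 62 were called (27.4%, beside 19.6% of all genes), 13 higher and 4 lower, with a median log2 difference over the 62 of 0.01. Atf4 (0.23), the mTOR inhibitor Deptor (0.22), Castor2 (0.21), Camkk1 (0.20), Ulk1 (0.16) and Eif4ebp2 (0.15) rose, as did Prr5, a subunit of mTOR complex 2 (0.38). Lamtor5, part of the lysosomal anchor of mTOR, fell by 0.28. With the length slope as a term edgeR called 9 of the 62 (14.5%, beside 9.27% of all genes). In running wheel mice edgeR and DESeq2 each called 0 of the 62, and 3 had an unadjusted p under 0.05 (beside 1405 of all 18841 genes by edgeR). The difference between the sets was called for 12 of the 62 (19.4%, beside 5.32% of all genes), 9 higher and 3 lower in calorimetry mice, with Castor2 at 0.25, Camkk1 at 0.21, Eif4ebp2 at 0.16, Atf4 at 0.23 and Lamtor5 at -0.22. With the length slope as a term that count was 6 (9.68%, beside 2.56% of all genes). Between the sets themselves 41 of the 62 were called (66.1%, beside 62.2% of all genes) and between the sexes at ZT6 39 (62.9%, beside 58.1%). Fitted with the length slope, these were 18 (29%, beside 24.2%) and 9 (14.5%, beside 11.1%). Without it Lamtor5 was higher in calorimetry mice (0.64) and in males (0.56).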

How the data were processed

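Total RNA was depleted of ribosomal RNA and sequenced from directional libraries, per the labels' protocols. The authors deposited raw read counts per gene, 1 table for the atlas and 1 for ZT6. The submitters' processing notes name Trim Galore, STAR, SAMtools, limma and mm10, while their versions, the counting tool and its strand setting are not stated there. From these counts, genes were filtered with filterByExpr, scaled by TMM and tested with edgeR 4.0.16 (R 4.3.3) by robust quasi-likelihood tests with Benjamini-Hochberg adjustment over all genes (threshold 0.05), each table apart. CPM values were computed from the deposited counts. GENCODE release M21 gave symbols to 55227 of the 55487 identifiers. The fit of the ZT6 table used all groups. The tests were checked on simulated data that held no length slope and no set or sex differences, so the check does not cover these.

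Alternatives were DESeq2 1.42.0, RLE scaling, no filter, a replicate block, a length slope term, the times as 8 levels, and fits without each replicate number or without libraries that stand apart. Fits by sex, fits within set and sex, and fits without the mitochondrial library or all 3 libraries were chosen after seeing the data. All 10 members are named in each comparison, at most 8 other pathway genes by smallest p, and the 3 most similar genes per rhythmic member. The members and lists were chosen with earlier results of these data known. Replicate numbers did not pair libraries: deviations of same-numbered libraries had a mean correlation of 0.0055 in the atlas and 0.014 at ZT6. No libraries were identical. Of the labelled samples, 1 running wheel male (12:12, WT/TG) had no matching column and was not analysed here, although the design had counted it.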

Additional observations from a re-analysis of the deposited data

Results flagged for a closer look

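In 21 of 460 checks of a gene in a group, 1 library lay far from the rest of its group by Dixon's criterion, and chance alone flags about 1 in 20. The values are in CPM, with the nearest library of the group after each. Ddit4 had 30.2 (nearest 21.9) in replicate 4 of calorimetry females on 12:12, HET/WT, 22.8 (nearest 31.2) in replicate 4 of calorimetry males on 11:11, HET/TG and 26.5 (nearest 20.1) in replicate 6 of atlas females at ZT0. Mtor had 174 (nearest 162) in replicate 1 of calorimetry females on 11:11, WT/WT and 112 (nearest 126) in replicate 2 of atlas females at ZT15. Prkaa1 had 23.6 (nearest 29.9) in replicate 3 of calorimetry males on 11:11, HET/WT, 25.6 (nearest 31) in replicate 3 of running wheel males on 11:11, WT/WT and 23.6 (nearest 27.1) in replicate 1 of atlas females at ZT18. Prkaa2 had 79.5 (nearest 96.2) in replicate 2 of running wheel females on 11:11, HET/WT. Prkab1 had 12.4 (nearest 10.1) in replicate 2 of calorimetry males on 12:12, HET/TG. Prkab2 had 31.3 (nearest 29.4) in replicate 3 of calorimetry males on 12:12, HET/WT, 30.4 (nearest 32.5) in replicate 2 of running wheel females on 11:11, HET/TG and 43.3 (nearest 36.5) in replicate 4 of atlas females at ZT18. Prkag1 had 25.4 (nearest 28.6) in replicate 4 of calorimetry females on 11:11, HET/TG, 22.2 (nearest 25.7) in replicate 6 of atlas females at ZT0 and 20.1 (nearest 24.9) in replicate 4 of atlas females at ZT9. Prkag2 had 88.6 (nearest 57.5) in replicate 4 of calorimetry males on 11:11, HET/TG, 59.2 (nearest 65.4) in replicate 4 of running wheel females on 11:11, HET/TG and 59.9 (nearest 66.4) in replicate 3 of running wheel males on 12:12, HET/WT. Sesn3 had 260.3 (nearest 219) in replicate 1 of atlas females at ZT0 and 229 (nearest 213) in replicate 5 of atlas females at ZT15. Replicate 4 of the calorimetry males on 11:11, HET/TG, is the library rich in mitochondrial RNA. Of 60 differences of effects between groups among the 10 genes, edgeR called 0.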

How the results depend on the processing

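Over 16 comparisons, the count of the 10 genes called stayed within 1.5 times its value in 193 of the alternative fits and moved in 16. A count of 0 that stayed 0 was taken as unchanged, and many of the comparisons started from 0. These totals thus say little about the comparisons that had calls. Single gene results kept direction and call in 500, lost the call in 70, gained it in 12 and reversed in 13. The rhythm count of 6 was 3 in females alone. The 11:11 count of 3 was 1 with DESeq2, 1 with RLE scaling, 1 without the library rich in ribosomal RNA, 1 within calorimetry females, and 0 with the length slope, within running wheel females and within running wheel males. The count for light cycle by sex was 1 with DESeq2, that for set 2 with the length slope, and that for sex at ZT6 0 with it. Leaving out each replicate number gave counts of 4 to 6 (rhythm), 5 to 6 (sex in the atlas), 0 to 2 (11:11), 1 to 2 (11:11 in calorimetry mice), 6 (set), 8 (sex at ZT6) and 0 elsewhere. Reversed log2 differences were Prkab1 0.10 and Sesn1 -0.012 for 11:11 within running wheel males, and Prkaa2 -0.016 for 11:11 in calorimetry mice with the length slope. With that slope, set gave Prkaa2 0.29, Prkab2 0.18, Prkag1 -0.032, Prkag2 0.063 and Sesn3 0.060, and sex at ZT6 gave Prkaa2 0.12, Prkab2 0.13 and Sesn3 0.0056. Without each replicate number, 11:11 in running wheel mice gave -0.079 to 0.051 for Prkab1 and -0.00083 to 0.064 for Sesn1. The cause was not tested. With the replicate block, 6 genes were called for rhythm, 3 for 11:11, 7 for set and 8 for sex at ZT6, as without it, and it changed no call among the 10. Prkab1, with the lowest counts, had a within-group SD of 0.28 (log2) at ZT6, against a median of 0.18 over all genes.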
